A study of Mus musculus with 8 samples.

Results

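The genes described here are 9 early genes of receptor stimulation, Egr1, Egr2, Egr3, Nr4a1, Nr4a2, Nr4a3, Cd69, Ier2 and Ier3, named by symbol and matched to the Ensembl IDs of a table of raw counts with 55573 gene IDs. All 9 were found, and all 9 were among the 12500 genes that passed a filter on low counts. Total RNA had been sequenced from CD8+ T cells labelled naive, that is, cytotoxic-lineage cells before any encounter with antigen, in 5 libraries labelled Furin KO and 3 labelled WT. All mice were male C57BL/6. Furin KO replicate 1 and WT replicate 1 came from mice of 7 weeks, and Furin KO replicates 2 to 5 and WT replicates 2 and 3 from mice of 8 weeks. The cells were taken ex vivo from spleen and lymph nodes, enriched magnetically for CD8a and then sorted by flow cytometry, with no stimulation named. The labels call the genotype Furin KO and name no allele or Cre driver, and nothing in them ties a library to a separate mouse. The spread between libraries that enters each p-value may therefore be technical in part. The libraries were also read by runs of consecutive titles. WT replicate 1 is titled S1 and Furin KO replicate 1 S2, Furin KO replicates 2 and 3 and WT replicate 2 are titled S3 to S5, and Furin KO replicates 4 and 5 and WT replicate 3 are titled S6 to S8. The labels name no preparation date or batch, so these 3 runs are called title blocks here.

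Early genes are transcribed within minutes of receptor engagement from transcription factors that already sit in the cell, without new protein synthesis. In T cells, calcium and the Ras to ERK kinase cascade lead to the Egr zinc finger factors, to the orphan nuclear receptors of the Nr4a family and to CD69, a C-type lectin that holds back the egress receptor S1PR1 at the surface. Nr4a1 (Nur77) and Egr1 are read in resting T cells as marks of weak tonic signal from self peptide, and many early genes also respond to the isolation of cells from tissue.

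Total counts ranged from 11308220 to 21040431 in Furin KO, with Furin KO replicate 5 the shallowest library, and from 14463450 to 19159021 in WT. The 10 naive CD8 T cell markers, among them Cd3e, Cd8a, Cd8b1, Ccr7, Il7r, Tcf7 and Lef1, summed to between 11141 and 12460 CPM (counts per library total, after TMM scaling) in Furin KO and between 10811 and 12135 CPM in WT. The erythroid and platelet markers Hbb-bs, Hba-a1, Alas2, Ppbp and Pf4 were at 0 counts in every library. Other lists were not at 0. Antigen-experienced T cell markers summed to 557 to 740 CPM in Furin KO and 629 to 653 CPM in WT. NK cell markers summed to 33.6 to 51.7 and 39.5 to 40.4 CPM, and B cell markers to 19.5 to 28.6 and 20.6 to 28.3 CPM. Only 1 of 5 NK cell markers and 1 of 6 B cell markers passed the filter on low counts. In each of these lists 2 markers were at 0 counts in every library. Eomes stands in both the NK cell and the antigen-experienced list. CD4 T cell markers summed to 0.615 to 2.52 CPM in Furin KO and 2.64 to 5.08 CPM in WT. The targeted gene, Furin, was not lower in the Furin KO libraries. Its level was 63.5, 86.4, 62.2, 58.0 and 76.6 CPM in Furin KO replicates 1 to 5, against 57.0, 66.8 and 66.9 CPM in WT replicates 1 to 3 (log2 fold change 0.12, edgeR adjusted p = 0.9998). Whole-gene counts cannot show a deleted exon, so every direction below rests on the label of a library as Furin KO or WT.

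The 9 early genes did not separate the genotypes. In the edgeR quasi-likelihood test of genotype, 0 of 9 passed a Benjamini-Hochberg adjusted p of 0.05 as higher and 0 of 9 as lower, where 0.024% and 0.008% of the 12500 genes tested did. Also 0 of 9 had an unadjusted p under 0.05, as 3.21% of all genes tested had, and DESeq2 and limma-voom called 0 of 9 as well. With the title block as a factor 0 of 9 passed, where 0.064% of all genes passed as higher and 0.032% as lower, and 0 of 9 had an unadjusted p under 0.05, against 5.65% of all genes. Of the 9 fold changes in that fit 5 were above 0 and 4 below. At 0 of the 9 genes were the groups free of overlap, which was so at 2.9% of all genes. Fold changes were above 0 at 3 genes and below 0 at 6, where 49.8% of all genes were above 0. The median log2 value of the 9 was -0.01, and that of all genes tested was -0.00068. The 9 genes together held 719, 499, 396, 538 and 565 CPM in Furin KO replicates 1 to 5 and 623, 446 and 668 CPM in WT replicates 1 to 3. The sums averaged 543 ± 117 CPM in Furin KO (SD, n = 5) and 579 ± 117 CPM in WT (n = 3), a difference of -35.5 CPM that is smaller than the spread within either genotype.

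Library-to-library differences followed the title blocks at some of the genes and not at others. Nr4a1, Nr4a2, Cd69 and Ier2 were lower in all of S3 to S5 than in any of the other 5 libraries, and these 3 libraries hold both genotypes. Egr1, Egr2, Egr3, Nr4a3 and Ier3 had overlapping ranges. The members and the blocks were both taken up with earlier results of these data known, so the block values are a description and carry no test. Lower values without overlap were found at 4 of the 9 genes and at 4.67% of all genes tested, and higher values without overlap at 0 of the 9 and at 4.25% of all genes.

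**Figure D1:**
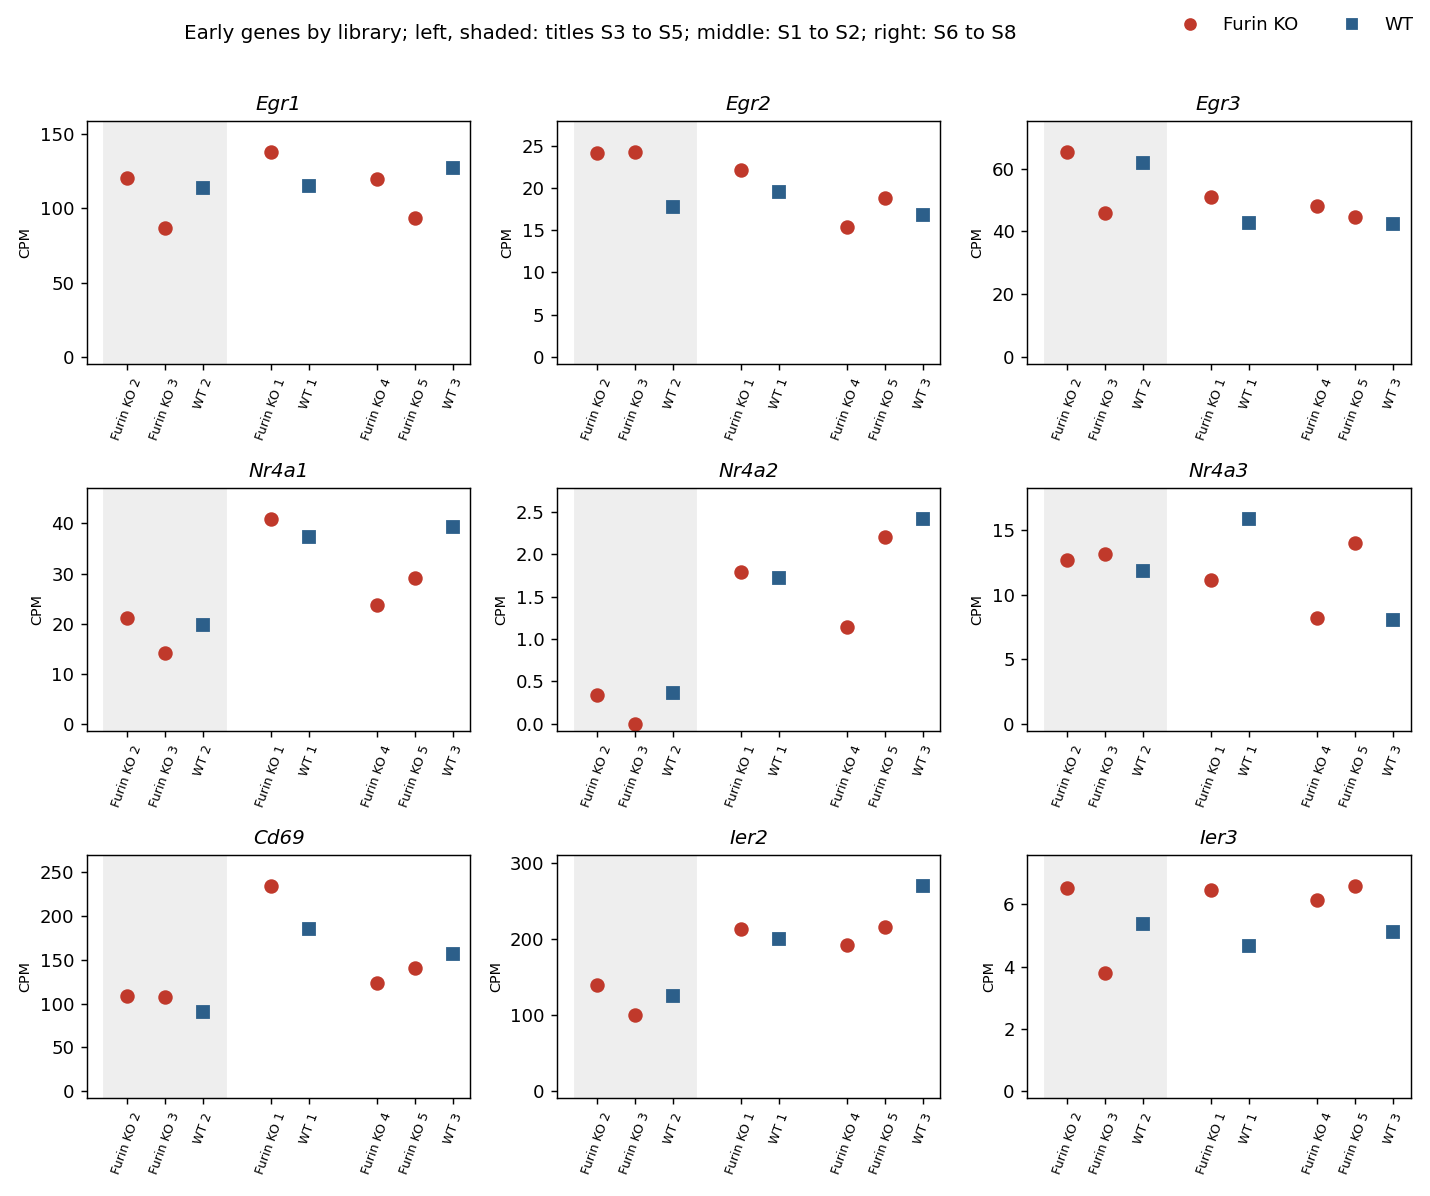
Level of each early gene (y axis, CPM, from 0) in each library (x axis), with Furin KO as red circles and WT as blue squares, grouped by title block. In the shaded block S3 to S5, Nr4a1, Nr4a2, Cd69 and Ier2 lie under all other libraries, while Egr1, Egr2, Egr3, Nr4a3 and Ier3 overlap them.

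The Egr genes encode zinc finger transcription factors that are induced through ERK and, in T cells, take part in activation and, for Egr2 and Egr3, in restraint and anergy. Egr1 (ENSMUSG00000038418, GRCm38 chromosome 18, 34859823 to 34864984, plus strand) had 138, 120, 86.5, 119 and 93.3 CPM in Furin KO replicates 1 to 5, against 115, 114 and 127 CPM in WT replicates 1 to 3. The Furin KO values surround those of WT, with Furin KO replicates 3 and 5 lowest and replicate 1 highest. The fitted log2 fold change of Egr1 was -0.09, with a 95% interval of -0.36 to 0.19. The two-sided exact permutation test gave p = 0.571, where the smallest p this design allows is 0.0357. By block, Egr1 averaged 107 ± 17.8 CPM in S3 to S5 (SD, n = 3) and 119 ± 16.6 CPM in the other libraries (n = 5), a ratio of 0.900.

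Egr2 (ENSMUSG00000037868, chromosome 10, 67535475 to 67542188, plus strand) had 22.2, 24.2, 24.4, 15.4 and 18.9 CPM in Furin KO replicates 1 to 5 and 19.6, 17.8 and 16.9 CPM in WT replicates 1 to 3. Of the 5 Furin KO libraries 3 lay above all WT libraries and 1 below them. The log2 fold change was 0.22 (95% interval -0.14 to 0.57; edgeR adjusted p = 0.9998). Within blocks, Furin KO averaged 24.3 CPM against 17.8 in WT in S3 to S5, 22.2 against 19.6 in S1 to S2, and 17.1 against 16.9 in S6 to S8. The mean was thus higher in Furin KO in 3 of 3 blocks, but each block holds only 1 WT library. In S6 to S8, Furin KO replicate 4, at 15.4 CPM, lay under WT replicate 3, at 16.9 CPM. With the block as a factor the log2 fold change was 0.22 and did not pass (edgeR adjusted p = 0.955). Without S3 to S5 it was 0.047 (SE 0.21, edgeR adjusted p = 0.9994).

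Egr3 (ENSMUSG00000033730, chromosome 14, 70077203 to 70082614, plus strand) had 51.0, 65.5, 45.8, 48.3 and 44.7 CPM in Furin KO replicates 1 to 5, against 42.8, 61.9 and 42.2 CPM in WT replicates 1 to 3. The highest value of each genotype came from S3 to S5. Egr3 averaged 57.8 ± 10.5 CPM in S3 to S5 (SD, n = 3) and 45.8 ± 3.74 CPM in the other libraries (n = 5), a ratio of 1.26, but the ranges overlapped through Furin KO replicate 3. Its log2 fold change between genotypes was 0.06 (95% interval -0.26 to 0.38).

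The Nr4a genes encode ligand-independent nuclear receptors that rise quickly after T cell receptor stimulation and limit the response. Nr4a1 (ENSMUSG00000023034, chromosome 15, 101254269 to 101274795, plus strand) had 40.9, 21.1, 14.2, 23.6 and 29.1 CPM in Furin KO replicates 1 to 5 and 37.3, 19.7 and 39.2 CPM in WT replicates 1 to 3. The log2 fold change, -0.31 with a 95% interval of -0.87 to 0.24, was the most negative of the 9 after that of Nr4a2 (permutation p = 0.464, exact and two-sided). It depended on single libraries, at -0.57 without WT replicate 2 and -0.55 without Furin KO replicate 1 (edgeR adjusted p = 0.9998 for both, with unadjusted values of 0.0414 and 0.0336). It was -0.19 without WT replicate 1, -0.16 without Furin KO replicate 3 and -0.14 without WT replicate 3. The lowest library of each genotype was from S3 to S5, where Nr4a1 averaged 18.3 ± 3.66 CPM (SD, n = 3) against 34.0 ± 7.37 CPM in the other libraries (n = 5), a ratio of 0.54. The ratio was 0.56 among Furin KO libraries alone and 0.51 among WT libraries alone. The nearest values across the gap were 21.1 CPM in Furin KO replicate 2 and 23.6 CPM in Furin KO replicate 4. Within blocks, Furin KO stood at 17.6 CPM against 19.7 in WT in S3 to S5, at 40.9 against 37.3 in S1 to S2, and at 26.4 against 39.2 in S6 to S8. The direction between genotypes thus differed between blocks, and with the block as a factor the log2 fold change was -0.23 (SE 0.15, edgeR adjusted p = 0.948).

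Nr4a2 (ENSMUSG00000026826, chromosome 2, 57106830 to 57124003, minus strand) was close to the floor of these libraries. It had 37, 7, 0, 24 and 25 counts in Furin KO replicates 1 to 5 and 25, 7 and 43 counts in WT replicates 1 to 3, which is 1.79, 0.335, 0, 1.14 and 2.20 CPM against 1.72, 0.365 and 2.42 CPM. The 0 in Furin KO replicate 3 allows up to 0.160 CPM (3 counts, counting error only). S3 to S5 held 14 counts together and the other 5 libraries 154, a ratio of 0.13 per scaled library size (exact 95% interval 0.0705 to 0.228, counting error only). Between genotypes the interval was wide, with a log2 fold change of -0.47 (95% interval -2.41 to 1.46).

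Nr4a3 (ENSMUSG00000028341, chromosome 4, 48045153 to 48086447, plus strand) did not share the low values of the rest of its family in S3 to S5. It had 11.1, 12.6, 13.1, 8.15 and 13.98 CPM in Furin KO replicates 1 to 5, against 15.9, 11.8 and 8.04 CPM in WT replicates 1 to 3. The S3 to S5 libraries, at 11.8 to 13.1 CPM, lay inside the range of the other 5, at 8.04 to 15.9 CPM. The log2 fold change between genotypes was -0.01 (95% interval -0.50 to 0.47), and it changed sign with the block as a factor, to 0.05.

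Upstream sequences are shown for the Nr4a genes, because they differed from each other by block, and for Egr2, a gene that was not low with Nr4a1 and Nr4a2 in S3 to S5. A RefSeq promoter window on GRCm38.p6 was found for 5 of the 9 genes, Egr2, Nr4a1, Nr4a2, Nr4a3 and Ier3. Each line gives the 250 bases before one annotated start, 5′ to 3′ on the gene's strand. Capitals mark TGACG, the half-site of CREB and ATF factors, on either strand, and the CArG box bound by SRF. The windows are chr15:101266596-101266845 (plus strand), chr2:57124004-57124253 (minus strand, directly before the annotated gene), chr4:48045055-48045304 (plus strand) and chr10:67537619-67537868 (plus strand). Each was compared with the start of 1 GENCODE transcript of its gene. The Nr4a2 window lies 8965 bases from that start, against 0 for Nr4a1 and Egr2 and 152 for Nr4a3. The Nr4a2 matches thus do not describe the sequence next to the compared start.
Nr4a1: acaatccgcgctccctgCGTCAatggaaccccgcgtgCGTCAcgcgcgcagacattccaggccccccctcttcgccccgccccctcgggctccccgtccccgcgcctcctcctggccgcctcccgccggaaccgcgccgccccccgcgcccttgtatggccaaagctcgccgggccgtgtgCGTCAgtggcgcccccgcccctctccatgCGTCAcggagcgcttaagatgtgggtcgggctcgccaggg
Nr4a2: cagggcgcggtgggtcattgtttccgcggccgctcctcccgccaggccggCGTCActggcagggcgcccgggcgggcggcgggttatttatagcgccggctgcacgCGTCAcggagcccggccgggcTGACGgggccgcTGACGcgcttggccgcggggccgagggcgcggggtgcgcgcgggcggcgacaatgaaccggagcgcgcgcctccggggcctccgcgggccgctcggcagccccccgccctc
Nr4a3: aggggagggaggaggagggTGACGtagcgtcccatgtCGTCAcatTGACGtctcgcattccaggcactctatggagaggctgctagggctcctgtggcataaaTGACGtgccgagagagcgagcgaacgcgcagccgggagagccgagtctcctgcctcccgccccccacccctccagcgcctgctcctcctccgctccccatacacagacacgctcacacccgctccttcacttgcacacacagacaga
Egr2: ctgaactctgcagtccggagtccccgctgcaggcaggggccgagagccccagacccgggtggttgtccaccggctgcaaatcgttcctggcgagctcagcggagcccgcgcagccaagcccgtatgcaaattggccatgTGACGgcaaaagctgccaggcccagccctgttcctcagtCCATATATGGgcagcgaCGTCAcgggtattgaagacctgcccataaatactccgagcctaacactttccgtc

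TGACG was found 4 times in each of the 3 Nr4a windows, 2 times in that of Egr2 and 0 times in that of Ier3, counting both strands and any overlap. Of 32851 promoter windows of the same length 17.8% held it at least 1 time and 0.137% at least 4 times. The Egr2 window held 1 CArG box, as 1.47% of all windows did, and the Nr4a and Ier3 windows held 0. The Egr site GCGNGGGCG was found 1 time in each of the windows of Nr4a1 and Nr4a2 and 0 times in those of Nr4a3, Egr2 and Ier3, against 4.7% of all windows with it. It is not capitalised and overlaps no marked TGACG. Any part of these matches in the levels of the genes by block was not tested.

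Cd69 (ENSMUSG00000030156, chromosome 6, 129267325 to 129275436, minus strand) had 235, 109, 107, 123 and 141 CPM in Furin KO replicates 1 to 5 and 185, 90.0 and 157 CPM in WT replicates 1 to 3. The libraries stood in the same order by block in both genotypes, with S1 to S2 highest, S6 to S8 next and S3 to S5 lowest. Cd69 averaged 102 ± 10.5 CPM in S3 to S5 (SD, n = 3) and 168 ± 43.5 CPM in the other libraries (n = 5), a ratio of 0.61. Against S6 to S8 alone, which have the same age and the same number of libraries of each genotype, the ratio was 0.73. Between genotypes the log2 fold change was -0.01 (SE 0.23). With the block as a factor it was 0.09 (SE 0.10, 95% interval -0.11 to 0.29, edgeR adjusted p = 0.989).

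The Ier genes are named for their immediate early response. Ier2 (ENSMUSG00000053560, chromosome 8, 84661331 to 84662852, minus strand) encodes a nuclear protein and Ier3 (ENSMUSG00000003541, chromosome 17, 35821684 to 35822923, plus strand) a small protein that modulates survival and NF-kB and ERK signals. Ier2 had 213, 140, 101, 192 and 215 CPM in Furin KO replicates 1 to 5, against 200, 125 and 270 CPM in WT replicates 1 to 3. It averaged 122 ± 19.7 CPM in S3 to S5 (SD, n = 3) and 218 ± 30.4 CPM in the other libraries (n = 5), a ratio of 0.56. Its log2 fold change between genotypes was -0.21 (SE 0.22), and -0.15 (SE 0.10, edgeR adjusted p = 0.952) with the block as a factor. Ier3 had 6.45, 6.51, 3.79, 6.15 and 6.59 CPM in Furin KO replicates 1 to 5 and 4.67, 5.37 and 5.12 CPM in WT replicates 1 to 3. Of the Furin KO libraries 4 lay above all WT libraries and replicate 3 below them, and the log2 fold change was 0.22 (95% interval -0.36 to 0.80).

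**Figure D2:**
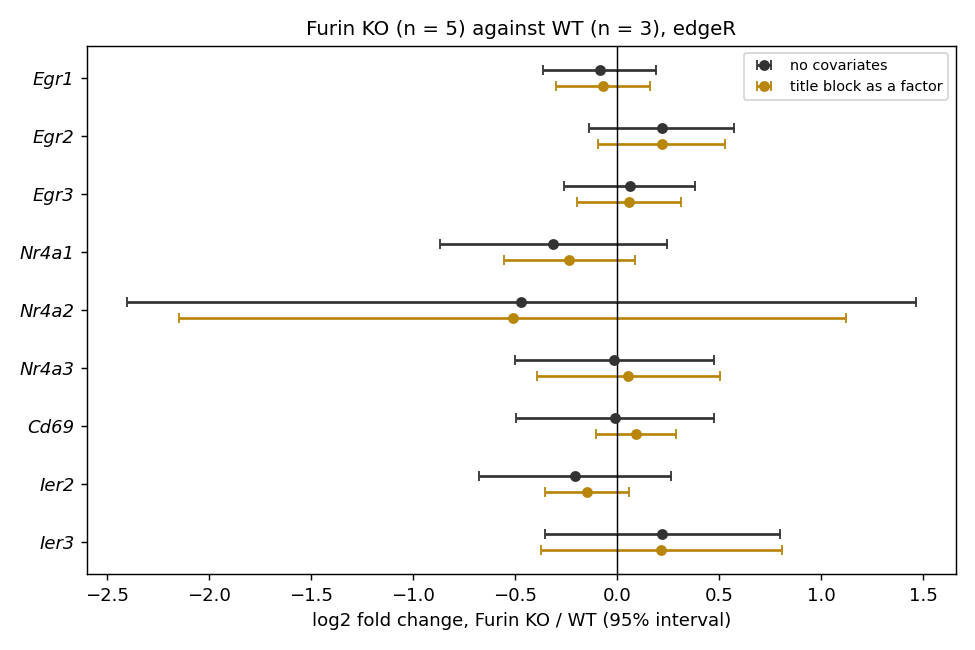
Log2 fold change of each early gene, Furin KO (n = 5) over WT (n = 3), by edgeR without covariates (dark) and with the title block as a factor (gold), where points are estimates and bars 95% intervals. Every interval includes 0, and the bars of Cd69 (SE 0.23 without covariates and 0.10 with the block) and Ier2 (0.22 and 0.10) shorten most in proportion.

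The summed level of the 9 genes was 499, 396 and 446 CPM in Furin KO replicate 2, Furin KO replicate 3 and WT replicate 2, the libraries of S3 to S5, and 538 to 719 CPM in the other 5. The means were 447 ± 51.7 CPM in S3 to S5 (SD, n = 3) and 623 ± 73.9 CPM elsewhere (n = 5), a difference of -176 CPM. The Egr genes made up 39.6% to 43.3% of the sum in S3 to S5 and 27.8% to 34.0% in the other libraries. Within S6 to S8, Furin KO replicate 4 had 34.0% and Furin KO replicate 5 and WT replicate 3 had 27.8% and 27.9%.

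**Figure D3:**
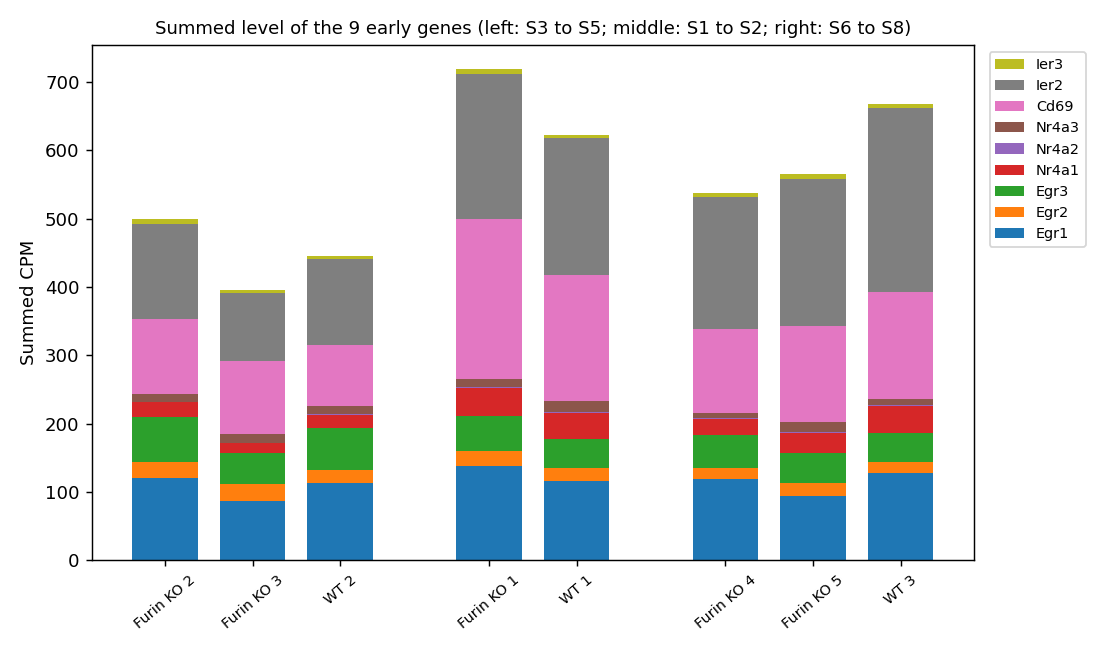
Summed CPM (y axis) of the 9 early genes in each library (x axis), stacked by gene and grouped by title block with Furin KO left of WT. The S3 to S5 bars, at 396 to 499 CPM, are shorter mainly in the Cd69 and Ier2 segments, and the Egr1 segment overlaps between blocks, at 86.5 to 138 CPM.

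A list of 26 other immediate early and heat shock genes was read beside them, of which 24 were tested. In S3 to S5, 15 of the 24 were lower without overlap and 16 were lower by at least 1.5 times, against 4.67% and 6.46% of all genes tested, with a median ratio of 0.430 against 0.996 over all genes. Among the 9 genes described here the 4 without overlap were also lower by at least 1.5 times, as 1.42% of all genes were, and the median ratio of the 9 was 0.900. Fos, a subunit of the AP-1 transcription factor, had 204, 85.8 and 144 CPM in Furin KO replicate 2, Furin KO replicate 3 and WT replicate 2, against 801 to 1075 CPM in the other 5 libraries, a ratio of 0.16. Dusp1, a phosphatase that switches off MAP kinases, had a ratio of 0.15, and Fosb one of 0.023. Egr1 had thus 0.90 of its level elsewhere in the same libraries in which Fos had 0.16.

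The heat shock genes of the list overlapped between S3 to S5 and the other libraries. Hspa1b, an inducible chaperone, had 8.87, 3.50, 17.4, 6.91 and 9.23 CPM in Furin KO replicates 1 to 5 and 46.8, 5.69 and 23.1 CPM in WT replicates 1 to 3, and its S3 to S5 values overlapped the others. It shares reads with the near-identical Hspa1a. Hspa8, Hspe1 and Hsp90aa1 had ratios of 1.14, 1.08 and 0.83. Those of Hspa1a, Hspa1b and Dnajb1 were lower, at 0.44, 0.47 and 0.71, with overlapping ranges. Between genotypes, 0 of the 24 genes of the list passed, and 1 had a log2 fold change above 0 and 23 below, with a median of -0.23, where 49.8% of all genes were above 0. With the title block as a factor 5 were above 0 and 19 below, with a median of -0.14. The unadjusted p was under 0.05 at 3 of the 24, Hspa1a, Hspa1b and Dnajb1, against 3.21% of all genes. The largest changes were those of Hspa1a (-1.56), Hspa1b (-1.45), Dnajb1 (-0.56) and Rgs1 (-0.55), with an edgeR adjusted p of 0.9998 for all 4.

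**Figure D4:**
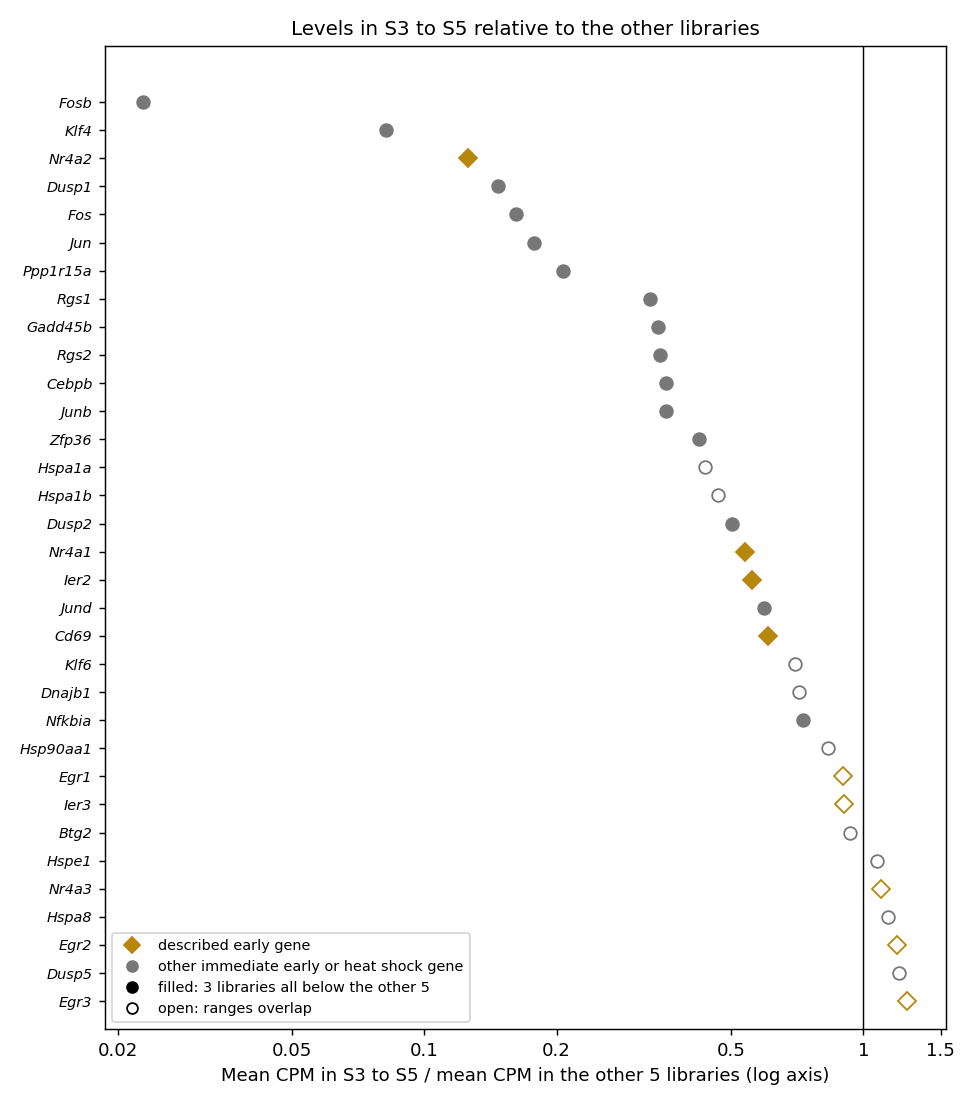
Mean CPM in S3 to S5 (n = 3) divided by mean CPM in the other 5 libraries (x axis, log scale) for the 9 early genes (gold diamonds) and 24 other immediate early or heat shock genes (grey circles), with filled symbols where the 3 libraries lie below all 5 others. Nr4a2 lies near Dusp1 and Fos, Nr4a1, Ier2 and Cd69 lie between 0.54 and 0.61, and the Egr genes lie between 0.90 and 1.26.

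Other marks moved with S3 to S5, and their part in the lower Nr4a1, Nr4a2, Cd69 and Ier2 was not tested. The 10 myeloid and dendritic cell markers summed to 4.79 to 5.82 CPM in S3 to S5 and 10.6 to 15.3 CPM in the other libraries. Of these, Csf1r, Adgre1, Cd14, S100a8 and S100a9 were at 0 counts in every library, Lyz2 reached at most 0.910 CPM, and most of the sum was Cd68. Naive markers were slightly higher in S3 to S5, at 12045 to 12460 CPM against 10811 to 11224 CPM, with Ccr7, the lymph node homing receptor, at 1.30 times its level elsewhere. In bulk RNA, fewer cells with a transcript and less of it per cell cannot be told apart.

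Longer-lived targets of T cell receptor signal gave 0 of 23 tested genes past the threshold in either direction, with 14 fold changes above 0 and 9 below. Irf4, a transcription factor that scales with receptor signal strength, had 7.71, 12.3, 10.8, 8.20 and 12.4 CPM in Furin KO replicates 1 to 5 and 1.65, 7.46 and 3.49 CPM in WT replicates 1 to 3. The groups did not overlap, but the log2 fold change of 1.27 did not pass (edgeR adjusted p = 0.951). The gap between the nearest libraries was from 7.71 to 7.46 CPM. For Irf4 the log2 fold change with the title block as a factor was 1.32, which also did not pass (edgeR adjusted p = 0.0817). Ctla4, an inhibitory receptor, had a log2 fold change of 1.38, Cd83 one of 0.73 and Irf8, a relative of Irf4, one of 0.69. In the fit with the title block these were 1.76, 0.79 and 0.71 (edgeR adjusted p = 0.2165, 0.9049 and 0.6885). In both fits 0 of these 3 passed. The groups did not overlap at Ctla4, at 3.59 CPM or more in Furin KO and 3.57 CPM or less in WT, nor at Irf8. Of the 23 genes 4 did not overlap between genotypes (Irf4, Ctla4, Irf8 and Cd5), against 2.9% of all genes tested, and 4 had an unadjusted p under 0.05 (Irf4, Ctla4, Irf8 and Nab2), against 3.21%. In S3 to S5, 1 of the 23, Id2, was lower without overlap, a share near the 4.67% of all genes. By mean, 5 of the 23 were lower by at least 1.5 times, with overlapping ranges, against 6.46% of all genes. Cd5, whose surface level tracks tonic signal, had 245 to 293 CPM in Furin KO and 301 to 307 CPM in WT. The groups did not overlap, but the log2 fold change of -0.13 did not pass (edgeR adjusted p = 0.9998). Cd5 and Id2 are named here with their values already seen.

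Genes that Egr and Nr4a factors are known to act on in tolerance gave 0 of 11 tested genes past the threshold, with 5 fold changes above 0 and 6 below. Nrn1 had a log2 fold change of 0.84, Ndrg1 of -0.41, Tob1 of -0.38 and Cblb, a ubiquitin ligase that restrains T cells, of -0.08. In S3 to S5, 3 of the 11, Tob1, Dgka and Klf2, were lower without overlap, against 4.67% of all genes, with ratios of 0.464, 0.886 and 0.770; Dgka and Klf2 are named with their values already seen. Among upstream kinases and transcription factors 0 of 30 passed. Hras had a log2 fold change between genotypes of -0.23, Crem of -0.21 and Rasgrp1, which loads Ras in T cells, of -0.21, and the median ratio of the 30 genes in S3 to S5 was 0.98.

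Partners of the encoded proteins gave 0 of 7 past the threshold. The unadjusted p of the edgeR test was under 0.05 at 2 of the 7, against 3.21% of all genes. Nab2, a co-repressor that binds Egr factors, had 73.3, 69.9, 93.5, 69.5 and 92.5 CPM in Furin KO replicates 1 to 5, against 103, 82.1 and 124 CPM in WT replicates 1 to 3. The groups overlapped and the log2 fold change of -0.37 did not pass (edgeR adjusted p = 0.9998). With the title block as a factor it was also -0.37 and did not pass (edgeR adjusted p = 0.576). Rxra, which pairs with Nr4a1 and Nr4a2, had -0.39 and did not pass. It did not overlap between groups, with 15.7 to 19.1 CPM in Furin KO and 21.2 to 25.6 CPM in WT. This was so at 1 of the 7 genes and at 2.9% of all genes tested. S1pr1, the egress receptor that CD69 protein holds back, was at 840 and 794 CPM in Furin KO replicates 2 and 3 and 878 CPM in WT replicate 2. These were all above the 639 to 758 CPM of the other 5 libraries. Of the 7 genes 1 was higher without overlap in S3 to S5, as were 4.25% of all genes. Of the relatives of the 9 genes, Ier5 followed Ier2, with 158 to 174 CPM in S3 to S5 and 234 to 284 CPM elsewhere. It was the 1 of 4 tested relatives lower without overlap, against 4.67% of all genes. Clec2d and Clec2i, lectins related to CD69, overlapped between S3 to S5 and the other libraries.

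Per kilobase of exon, the order of the 9 genes was set by Ier2, at 120 ± 36.7 CPM per kilobase (mean ± SD over 8 libraries), above all others in every library. Egr1 followed at 25.5 ± 3.77 and Cd69 at 22.0 ± 7.35, neighbours that differ by less than the spread of Cd69, with Egr1 above Cd69 in 5 of 8 libraries. Egr3 had 11.4 ± 1.998, Nr4a1 8.02 ± 2.87, Egr2 5.86 ± 0.985 and Ier3 4.94 ± 0.900 CPM per kilobase. Nr4a1 and Egr2 differ by less than the spread of Nr4a1, and Egr2 and Ier3 by less than the spread of Egr2. Nr4a3, at 1.98 ± 0.454, and Nr4a2, at 0.307 ± 0.227, were last, each under the gene before it in all 8 libraries. Egr3 lay under Cd69 in 7 of 8 libraries and above Nr4a1 in 5 of 8.

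The genes also differed in how much they varied. The SD of log2(CPM + 1) over the 8 libraries was 0.22 for Egr1, 0.23 for Egr2 and Egr3 and 0.24 for Ier3, 0.32 for Nr4a3, 0.45 for Cd69, 0.47 for Ier2, 0.53 for Nr4a1 and 0.67 for Nr4a2. Of the genes tested with a mean of at least 5 CPM, 31.0% varied more than Egr1, 28.1% more than Egr2 and 26.8% more than Egr3. By contrast 1.18% varied more than Nr4a1, 1.995% more than Ier2 and 2.33% more than Cd69. Over the 8 libraries the highest value was 1.60 times the lowest for Egr1 and 2.89 times the lowest for Nr4a1.

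Among 9263 other genes with a mean of at least 5 CPM, those whose profile over the 8 libraries was nearest the mean profile of Egr1, Nr4a1 and Cd69 were Odc1, Pim1, Adamts14, Cercam and Phka2. Nearness was the root mean square difference of centred log2(CPM + 1), which was 0.125 for Odc1, the first enzyme of polyamine synthesis, and for Pim1, a kinase, and 0.149 for Phka2, against a range of 1.09 in that mean profile. Odc1 had 34.5, 29.5 and 29.6 CPM in Furin KO replicate 2, Furin KO replicate 3 and WT replicate 2 and 41.7 to 57.0 CPM in the other libraries. Taken alone, Ier2 and Nr4a1 were each nearest to Jund, an AP-1 subunit, at 0.054 and 0.19, and Cd69 was nearest to Baz2b at 0.11. The nearest genes were Zfp882 for Egr1, Bcl7c for Egr2, Hif1an for Egr3, Wdfy2 for Nr4a3, Uck1 for Ier3 and Rps27 for Nr4a2. Rps27 has near-identical copies, so its counts are uncertain. The profiles come from 8 libraries that share the blocks and say nothing of function.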

How the data were processed

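Raw counts per gene were deposited by the authors for 5 Furin KO and 3 WT libraries of total RNA. Per the submitters' processing notes FastQC, Trim Galore, STAR, GRCm38 and DESeq2 1.24.0 were used; the counter, its annotation and its use of strand: not given in the sources used here. Groups follow the sample labels, also for Furin KO replicate 4, whose column stands among the WT columns. Of 55573 IDs, 55480 were matched to GENCODE M21 symbols.

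Libraries were scaled with TMM factors, genes were kept with edgeR's filterByExpr (minimum count 10), leaving 12500, and Furin KO was compared with WT by edgeR 4.0.16 (quasi-likelihood, no covariates, Benjamini-Hochberg adjusted p of 0.05) in R 4.3.3. Single levels were compared by exact permutation of log2(CPM + 1) over 56 arrangements. Alternatives used DESeq2 1.42.0, limma 3.58.1 (voom), other scalings and filters, age or title block as a factor, and fewer libraries. On simulated data for Furin KO against WT (12220 genes), 88.1% of 2-fold and 26.9% of 1.5-fold changes were recovered, with 13 false calls among 156. Chi-square per degree of freedom between pairs of libraries was 11.12 to 40.86, so no library was a copy of another within sampling noise. Intervals and floors from counts cover counting error only, and PCR copies were not marked by molecular identifiers.

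The 9 genes and all gene lists were chosen with earlier results of these data known. Genes named from a list are the 4 tested genes with the largest absolute fold change (some are not reported here), plus Fos, Dusp1, Furin and the profile neighbours; others are stated as named after their values were seen. Fosb, Hspa8, Hspe1, Hsp90aa1, S1pr1, Ccr7 and Cd68 are of this second kind.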

Additional observations from a re-analysis of the deposited data

Results flagged for a closer look

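The level of Cd69 in Furin KO replicate 1, at 235 CPM, stood apart from the other 4 Furin KO libraries, which lay between 107 and 141 CPM. The gap to the nearest of them was 0.734 of the range of the group. Furin KO replicate 1 is the only Furin KO library of S1 and S2 and the only one from a mouse of 7 weeks, and WT replicate 1, of the same block and age, had the highest Cd69 level of the WT libraries at 185 CPM. Age and title block cannot be told apart there.

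Ier3 in Furin KO replicate 3, at 3.79 CPM, lay under the other 4 Furin KO libraries, at 6.15 to 6.59 CPM, with a gap of 0.841 of the range. Furin KO replicate 3 also had the lowest Egr1, Nr4a1, Nr4a2 and Ier2 levels of all 8 libraries. The Furin KO group was read in this way for 10 values, and chance sets apart about 1 in 20 such groups.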

How the results depend on the processing

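Under all 19 alternatives 0 of the 9 early genes passed the threshold, and the lowest adjusted p of any of them was 0.868. Of 171 alternative fold changes 22 changed sign, none of them past the threshold. Egr3 turned to -0.026 in the 8-week libraries alone and to -0.011 in S3 to S8 with the block as a factor. Nr4a3 turned to 0.012 with limma-voom, 0.046 with age and 0.054 with the title block as a factor, 0.26 in the 8-week libraries and 0.28 in S3 to S8 with the block. Egr2 was at 0.047 without S3 to S5. Cd69 turned to 0.062 with age and 0.092 with the title block. With each library left out in turn, log2 fold changes spanned -0.17 to -0.0065 for Egr1, 0.16 to 0.32 for Egr2, -0.045 to 0.27 for Egr3, -0.57 to -0.14 for Nr4a1, -0.94 to 0.071 for Nr4a2, -0.23 to 0.25 for Nr4a3, -0.26 to 0.21 for Cd69 -0.45 to 0.084 for Ier2 and 0.17 to 0.35 for Ier3. Over all genes, 4 passed; 38 passed with no filter beyond 1 count, 15 with DESeq2, 12 with the title block, 8 without S3 to S5 and 9 in S3 to S8 with the block, and 3 to 5 with a library left out. The cause was not tested. As a mean of log2(CPM + 1), the summed level differed by -0.054 between Furin KO and WT and by -0.35 between S3 to S5 and the other libraries. The summed difference between genotypes was -102 to 8.99 CPM with a library left out. No paired analysis was possible because the labels number no replicates across the genotypes. Depth limits Nr4a2, with 0 to 43 counts a library. With 5 against 3 libraries, 1.5-fold changes were mostly missed in simulation. Larger changes can be missed at genes that vary more than the simulated ones, and the SE of Nr4a2 was 0.92.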
